A study of Mus musculus with 4 samples.

Results

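The CCR4 axis is a chemokine receptor, CCR4, with its pair of ligands, CCL17 and CCL22. Its 3 genes, Ccl17, Ccl22 and Ccr4, were read by symbol from the raw count tables of 4 mouse tumor libraries, which hold 25239 gene symbols each, and all 3 were found in every table. They were chosen by their CPM and their ratios between these same libraries, so their levels and ratios are given as a description and carry no test.

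CCL17 and CCL22 are small secreted proteins that bind CCR4, a G protein-coupled receptor, and draw cells that carry it along their gradient. Activated dendritic cells and macrophages are the best-known sources of both ligands, and interleukin 4, interleukin 13, thymic stromal lymphopoietin and GM-CSF are known to induce them. CCR4 is carried by regulatory T cells, type 2 helper T cells, skin-homing memory T cells and some activated T cells, and in tumors the axis is best known for bringing in regulatory T cells.

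B6 mice carried tumors of B16, a mouse melanoma line, under the skin of both flanks. Treatment started on day 7, and the tumors were collected 12 days after the step the labels call ACT and do not expand. All 4 groups received CTX, also not expanded in the labels, into the abdomen on the day before ACT. In the TRP-1MV group, TRP-1 T cells carrying MV were given by vein. In the MV (L.i.t.) group, free MV was injected into the left tumor and TRP-1 T cells were given by vein. The Remote tumor (no MV) group is the uninjected right tumor of that same treatment. The CTX group received no T cells and no virus, and its treatment label gives PBS injected into left tumors only. MV is written MYXV in the table headers, the usual abbreviation of myxoma virus. Each group had 1 library although the labels state n = 2, and nothing says if material of several mice was pooled. A difference between libraries therefore has no replicate check, and every interval below covers counting error only. T cells given by vein are part of 3 of the 4 groups, and a T cell transcript in those tumors can come from transferred or host cells.

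The libraries held between 12375526 and 21790759 reads assigned to genes. The material is called a melanoma cell line in 1 label and tumor tissue in the extraction protocol. The 12 pigment cell genes, such as Tyrp1, Pmel and Mlana, summed to 5720 CPM in the TRP-1MV tumor, 6112 CPM in the MV (L.i.t.) tumor, 26407 CPM in the remote tumor and 25936 CPM in the CTX tumor. CPM is the read count relative to library size, here with TMM scaling over the 4 libraries. The 15 pan T cell genes summed to 372.5 CPM in the TRP-1MV tumor, 372.4 CPM in the MV (L.i.t.) tumor, 10.3 CPM in the remote tumor and 10.6 CPM in the CTX tumor. The part of this difference in T cell, myeloid and tumor transcripts in the results below was not tested, and in bulk tissue a change in the number of cells of a type cannot be told apart from a change in RNA per cell.

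Reads of all 3 genes lay almost entirely in the TRP-1MV and MV (L.i.t.) tumors, the groups given virus-carrying T cells or a virus injection into the tumor. Ccl22 had 13007 reads in the TRP-1MV tumor, 6648 in the MV (L.i.t.) tumor, 5 in the remote tumor and 8 in the CTX tumor. Ccl17 had 1121 reads in the TRP-1MV tumor, 631 in the MV (L.i.t.) tumor and none in the remote and CTX tumors. Ccr4, the receptor, had 220 reads in the TRP-1MV tumor, 166 in the MV (L.i.t.) tumor and none in the remote and CTX tumors. A count of 0 allows up to 0.151 CPM in the remote tumor and 0.156 CPM in the CTX tumor, taking 3 counts per library as the limit.

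**Figure D1:**
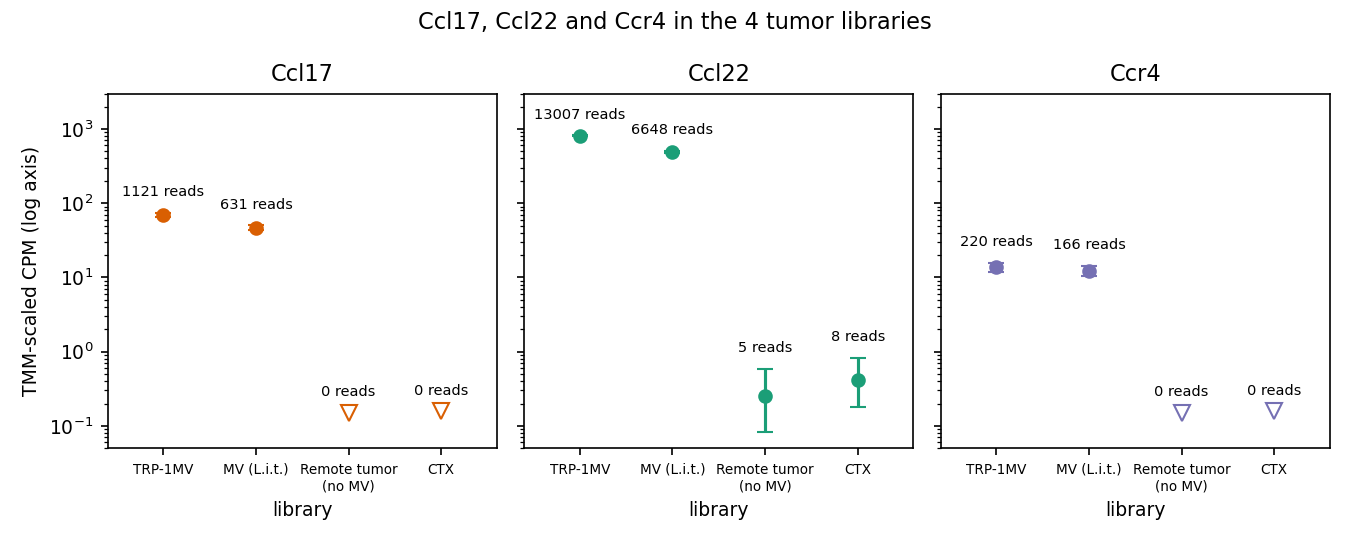
Level of Ccl17, Ccl22 and Ccr4 in each of the 4 libraries, in TMM-scaled CPM on a log axis, with 95% intervals for counting error; open markers stand at the limit that 0 reads allows. Ccl22 stands at 808 and 492 CPM in the TRP-1MV and MV (L.i.t.) tumors and below 1 CPM in the remote and CTX tumors, and Ccl17 and Ccr4 have reads in the TRP-1MV and MV (L.i.t.) tumors only.

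Ccl22, whose product is the higher-affinity ligand of CCR4, was the most abundant of the 3. Its level was 808 CPM in the TRP-1MV tumor (95% interval 794 to 822) and 492 CPM in the MV (L.i.t.) tumor (480 to 504), against 0.251 CPM in the remote tumor (0.0816 to 0.586) and 0.417 CPM in the CTX tumor (0.180 to 0.822). The log2 ratio to CTX was 10.92 in the TRP-1MV tumor (9.94 to 12.13) and 10.20 in the MV (L.i.t.) tumor (9.22 to 11.42). Both ratios share the CTX library, whose 8 reads set most of their width. Against the remote tumor, which came from the same treatment, the log2 ratio of the MV (L.i.t.) tumor was 10.94 (9.71 to 12.56). Ranked by log2 ratio to CTX, Ccl22 was number 3 of the 13357 genes with a mean count of at least 10, in the TRP-1MV tumor and in the MV (L.i.t.) tumor alike.

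Ccl17 encodes the other ligand. Its level was 69.6 CPM in the TRP-1MV tumor (65.6 to 73.8) and 46.7 CPM in the MV (L.i.t.) tumor (43.1 to 50.5), with no reads in the remote and CTX tumors. With the CTX library set to its limit of 3 counts, Ccl17 was at least 445-fold higher in the TRP-1MV tumor and at least 298-fold higher in the MV (L.i.t.) tumor than in CTX. The MV (L.i.t.) tumor was at least 310-fold higher than the remote tumor by the same limit. The exact 95% intervals, which add the counting error of both libraries, reach down to 361-fold and 242-fold against CTX and 251-fold against the remote tumor. Its rank by ratio to CTX, at that limit, was 15 in the TRP-1MV tumor and 16 in the MV (L.i.t.) tumor.

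Ccr4 was lower than its ligands. It stood at 13.7 CPM in the TRP-1MV tumor (11.9 to 15.6) and 12.3 CPM in the MV (L.i.t.) tumor (10.5 to 14.3), again with no reads in the remote and CTX tumors. It was at least 87.3-fold higher in the TRP-1MV tumor and at least 78.5-fold higher in the MV (L.i.t.) tumor than in CTX, and at least 81.5-fold higher in the MV (L.i.t.) tumor than in the remote tumor, by the limit of 3 counts. The exact 95% intervals reach down to 70.4-fold, 63.2-fold and 65.5-fold in these comparisons. Its rank was 138 in the TRP-1MV tumor and 120 in the MV (L.i.t.) tumor.

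A gene is called higher or lower below where the ratio reached 2 and the 95% interval left out 1. All 3 genes met this against CTX in both the TRP-1MV and the MV (L.i.t.) tumor, where 18.5% and 18.1% of all genes compared were called higher. They also met it in the MV (L.i.t.) tumor against the remote tumor, where 18.6% were called higher. Nothing is read from these counts, since the genes were chosen for this pattern and passed the minimum count only through the TRP-1MV and MV (L.i.t.) libraries. Between the remote tumor and CTX, 0.468% of genes were called higher and 0.253% lower, and Ccl22, the only member with reads in either, was not called. Its log2 ratio there was -0.73 with an interval of -2.69 to 1.06, a level of 0.155 to 2.09 times that of CTX, which includes equality.

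The TRP-1MV and MV (L.i.t.) tumors, which differ in how the virus was delivered, were closer to each other. Ccl22 was 1.64-fold higher in the TRP-1MV tumor than in the MV (L.i.t.) tumor, a log2 ratio of 0.72 (0.67 to 0.76). Ccl17 was 1.49-fold higher, a log2 ratio of 0.58 (0.43 to 0.72). For Ccr4 the ratio was 1.11-fold, with a log2 ratio of 0.15 and an interval of -0.14 to 0.45 that includes equality. None of the 3 reached the ratio of 2 for a call, and 0.562% of 13348 genes were called higher and 0.217% lower in the TRP-1MV tumor. Myeloid genes lay on the same side: the 15 macrophage and monocyte genes compared had a median log2 ratio of 0.40 and the 19 mature dendritic cell genes 0.45, against -0.01 for the 15 pan T cell genes and -0.01 for all genes, and the part of these genes in the ligands' difference was not tested. With 1 library each, the spread between tumors of 1 group is not known.

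Ratios of genes within a library do not depend on the scaling between libraries. Ccl17 made up 7.93% of the reads of the 2 ligands in the TRP-1MV tumor (exact binomial interval 7.49 to 8.39) and 8.67% in the MV (L.i.t.) tumor (8.03 to 9.34). The ratio of Ccl17 to Ccl22 in the TRP-1MV tumor over that in the MV (L.i.t.) tumor was 0.908 (0.819 to 1.01), so the mix of the ligands was not told apart between these libraries. The remote and CTX tumors had 5 and 8 ligand reads, all of Ccl22, which by the exact 95% limit allow a Ccl17 share of up to 52.2% and 36.9%. Per kilobase of exon, Ccl22 was 2.57 times Ccl17 in the TRP-1MV tumor (2.41 to 2.73) and 2.33 times in the MV (L.i.t.) tumor (2.15 to 2.53). The 2 ligands together took 31.6% of the reads of 37 chemokine genes in the TRP-1MV tumor and 29.8% in the MV (L.i.t.) tumor, against 0.208% in the remote tumor and 0.417% in the CTX tumor.

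**Figure D2:**
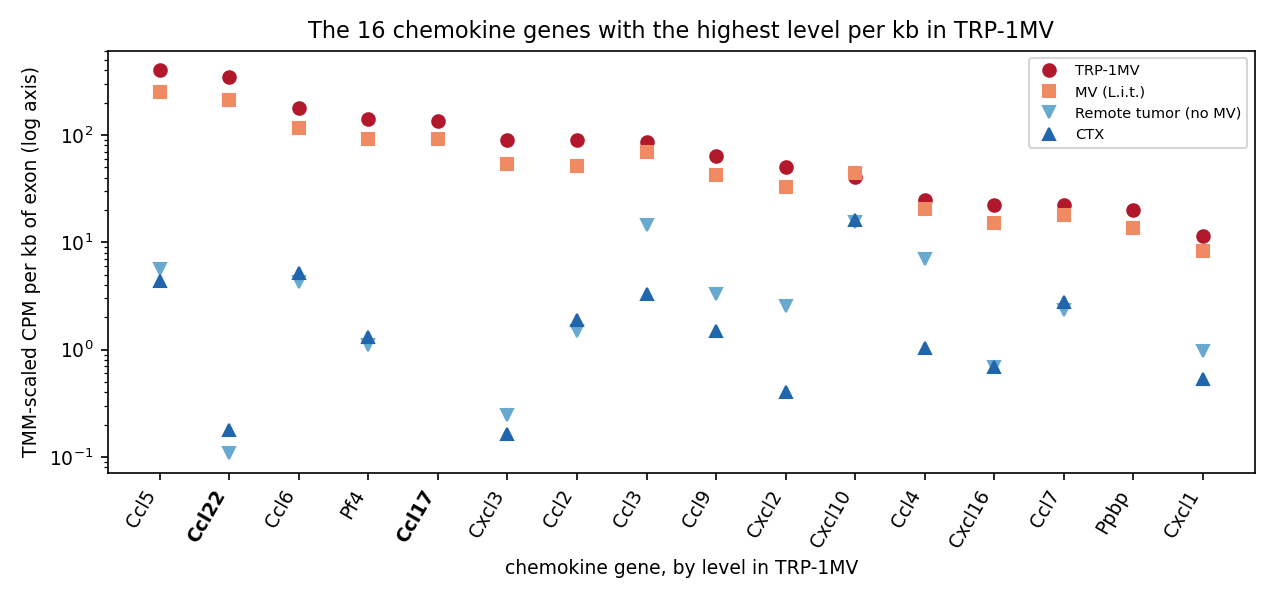
Level of the 16 highest chemokine genes of the TRP-1MV tumor in CPM per kilobase of exon, on a log axis, in the TRP-1MV, MV (L.i.t.), remote and CTX tumors; a gene with no reads in a tumor has no point there. Ccl22 has rank 2, at 347 and 212 CPM per kilobase in the TRP-1MV and MV (L.i.t.) tumors, behind Ccl5, and at 0.108 and 0.179 in the remote and CTX tumors.

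Among the 35 chemokine genes with an exon length, Ccl22 had rank 2 in the TRP-1MV tumor with 347 CPM per kilobase and rank 2 in the MV (L.i.t.) tumor with 212. Ccl5, a chemokine made by activated T cells, had rank 1 in both, with 403 CPM per kilobase in the TRP-1MV tumor and 253 in the MV (L.i.t.) tumor. Ccl17 had rank 5 in both, at 135 CPM per kilobase in the TRP-1MV tumor and 90.8 in the MV (L.i.t.) tumor. In the remote and CTX tumors Ccl22 had ranks 23 and 22, and rank 1 in CTX was held by Cxcl10, an interferon-induced ligand of CXCR3, at 16.2 CPM per kilobase.

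The ligand genes lie close together. Ccl22 occupies chr8:94745590-94751699 and Ccl17 chr8:94810453-94812036 on the plus strand of mm10, with 58.754 kb between them and the gene of another chemokine, Cx3cl1, in that gap. Both have 3 coding exons, no other annotated gene overlaps either, and no 31-base word of either gene's exons occurs in the exons of another gene. Cx3cl1 encodes fractalkine, a membrane-bound chemokine that binds CX3CR1. It had 447 reads in the TRP-1MV tumor, 232 in the MV (L.i.t.) tumor, 102 in the remote tumor and 76 in the CTX tumor. Its log2 ratio to CTX was 2.81 in the TRP-1MV tumor and 2.12 in the MV (L.i.t.) tumor, a call in both, and 0.37 in the remote tumor. Arl2bp, Rspry1 and Pllp on one side and Ciapin1, Coq9 and Polr2c on the other were not called against CTX in either tumor, and their log2 ratios in the TRP-1MV tumor lay between -0.66 for Ciapin1 and 1.08 for Pllp, which rests on 16 reads against 9 in CTX. Scaled on housekeeping genes, Pllp and Rspry1 were called higher, at 1.93 and 1.10 in the TRP-1MV tumor. The 15 housekeeping genes themselves differed, with 15449 CPM in sum in the TRP-1MV tumor and 15151 CPM in the MV (L.i.t.) tumor. In the remote and CTX tumors they summed to 28515 and 27849 CPM. This scaling therefore raises every ratio of the TRP-1MV and MV (L.i.t.) tumors to CTX.

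**Figure D3:**
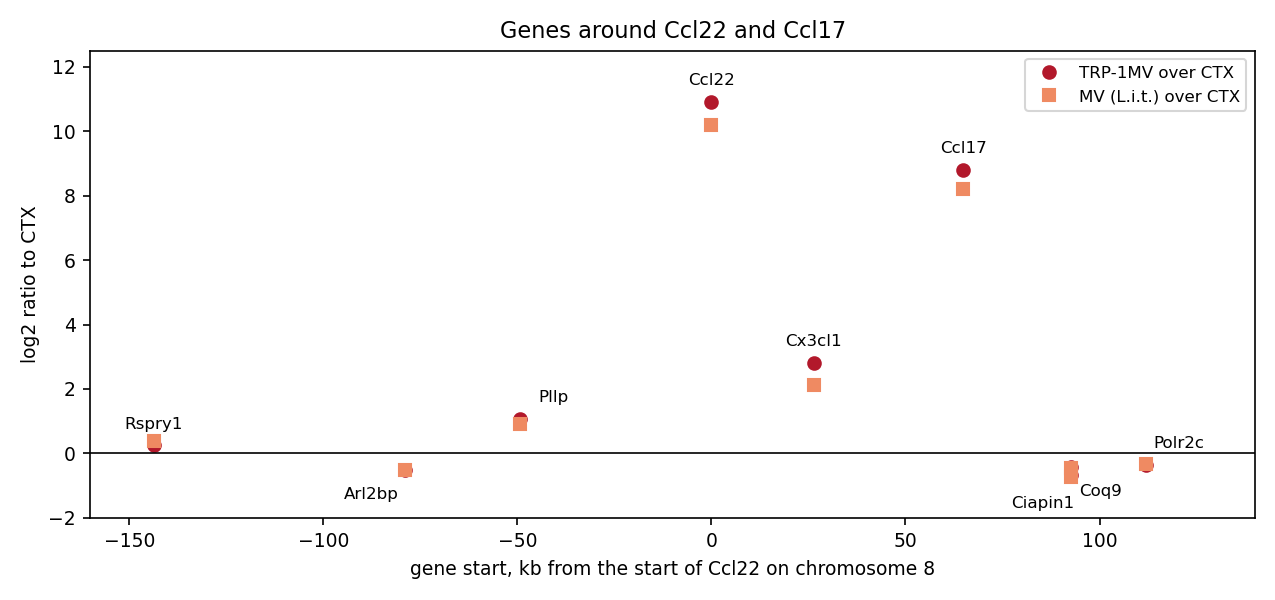
Log2 ratio to CTX of the annotated genes around the ligand genes, in the TRP-1MV and MV (L.i.t.) tumors, against the distance of each gene's start from that of Ccl22 in kilobases; the points of Ccl17 are lower bounds. Ccl22, Cx3cl1 and Ccl17 lie above the other genes, which range between -0.74 for Ciapin1 in the MV (L.i.t.) tumor and 1.08 for Pllp in the TRP-1MV tumor.

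Ccr4 lies at chr9:114490316-114504916 on the minus strand, with its coding region in a single exon at 114491916-114492995. No other gene overlaps it, and 0.963% of its 31-base exon words occur in another gene's exons. Its annotated neighbours had reads in all 4 tumors. Trim71, 2.217 kb away, had a log2 ratio to CTX of -0.29 in the TRP-1MV tumor and 0.06 in the MV (L.i.t.) tumor. Cnot10, a subunit of the CCR4-NOT deadenylase complex, which is unrelated to the chemokine receptor despite its name, stood at -0.43 in the TRP-1MV tumor and -0.31 in the MV (L.i.t.) tumor. Crtap, a collagen-modifying protein, was called lower in both, at -1.23 in the TRP-1MV tumor and -1.29 in the MV (L.i.t.) tumor. With scaling on housekeeping genes it was not called, at -0.38 and -0.41, nor in the TRP-1MV tumor with total counts, at -0.99. Glb1, 15.418 kb away, was called lower in the MV (L.i.t.) tumor at -1.15 and not called in the TRP-1MV tumor at -0.94. Its values under other scalings are not given here.

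Sequences just upstream of an annotated start of each of the 3 genes are shown because the genes share a pattern over the 4 tumors, and none of the measurements was made on these sequences. They are RefSeq windows of GRCm38.p6, written 5′ to 3′ on the gene's strand and cut so that they hold no annotated exon. Capitals mark the motif matches found on either strand. The coordinates are chr8:94810203-94810452 (plus) for Ccl17, chr8:94745434-94745589 (plus) for Ccl22 and chr9:114496563-114496794 (minus) for Ccr4. The Ccr4 window precedes the start of the transcript Ccr4-201 at 114496562, and lies inside the gene, in an intron of Ccr4-203, which starts at 114504916.
Ccl17: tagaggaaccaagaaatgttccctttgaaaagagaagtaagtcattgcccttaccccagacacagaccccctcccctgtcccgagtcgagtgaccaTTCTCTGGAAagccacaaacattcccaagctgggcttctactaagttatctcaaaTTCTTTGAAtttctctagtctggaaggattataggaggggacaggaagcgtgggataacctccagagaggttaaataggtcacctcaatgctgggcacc
Ccl22: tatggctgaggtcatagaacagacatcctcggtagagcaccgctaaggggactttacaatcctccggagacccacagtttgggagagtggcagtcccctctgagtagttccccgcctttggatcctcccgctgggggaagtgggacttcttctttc
Ccr4: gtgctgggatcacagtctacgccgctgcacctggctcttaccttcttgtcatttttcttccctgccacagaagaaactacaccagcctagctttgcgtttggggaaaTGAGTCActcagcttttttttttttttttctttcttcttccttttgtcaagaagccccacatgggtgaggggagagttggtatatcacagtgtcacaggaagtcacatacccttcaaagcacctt

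The Ccl17 window holds 1 match to the STAT6 motif, TTC and GAA with 4 bases of any kind between them, and 1 to the shorter STAT motif, TTCNNNGAA. STAT6 carries the interleukin 4 and interleukin 13 signal, and matches of these motifs occur in 5.85% and 7.02% of 32851 promoter windows of 250 bases. The Ccr4 window holds 1 match to the AP-1 motif TGANTCA, found in 6.75% of windows. The Ccl22 window, which is shorter, holds no match to these, to the NF-kB consensus, to the interferon response core (GAAA and GAAA with 2 bases between), to the ETS-IRF composite (GGAA and GAAA with 2 bases between) or to TATAAA, which occur in 7.25%, 2.98%, 2.3% and 12.4% of windows in that order. A match is a stretch of letters and does not show binding.

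Of the cytokines known to induce the ligands, Il4, Il13, Tslp and Csf2 had between 0 and 8 reads in each of the 4 tumors. Il4 had no reads in any library. Il13 had 3 reads in the TRP-1MV tumor, 7 in the MV (L.i.t.) tumor and none in the remote and CTX tumors. Tslp had no reads in the TRP-1MV tumor, 2 in the MV (L.i.t.) tumor and 8 each in the remote and CTX tumors. Csf2, which encodes GM-CSF, had 8 reads in the TRP-1MV tumor, 6 in the MV (L.i.t.) tumor and none in the remote and CTX tumors. These counts are too low for a call.

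Inflammatory cytokines were listed beside these, without being taken as known inducers of the ligands, and Ifng, Tnf and Il1b were higher. Of all 9 cytokines listed, 4 passed the minimum count. Of these, Ifng, Tnf and Il1b were called higher in both the TRP-1MV and the MV (L.i.t.) tumor, where 18.5% and 18.1% of all genes were. Il33, an epithelial alarmin, had 23 reads in the TRP-1MV tumor, 11 in the MV (L.i.t.) tumor, 34 in the remote tumor and 39 in the CTX tumor. Its log2 ratio to CTX was -0.51 in the TRP-1MV tumor, not a call, and -1.32 in the MV (L.i.t.) tumor, a lower call that was lost with scaling on housekeeping genes, at -0.44. Ifng, the type 1 helper and killer cell cytokine, had 625 reads in the TRP-1MV tumor, 531 in the MV (L.i.t.) tumor, 3 in the remote tumor and 2 in the CTX tumor. Il1b stood at a log2 ratio to CTX of 7.79 in the TRP-1MV tumor and 7.22 in the MV (L.i.t.) tumor. Tnf had 268 reads in the TRP-1MV tumor, 265 in the MV (L.i.t.) tumor, 143 in the remote tumor and 24 in the CTX tumor. Tnf and Il1b were also called higher in the remote tumor than in CTX, by log2 ratios of 2.52 and 2.62, against 0.468% of all genes. The 9 cytokines summed to 184 CPM in the TRP-1MV tumor and 147 CPM in the MV (L.i.t.) tumor. In the remote tumor they summed to 13.2 CPM and in the CTX tumor to 4.64 CPM. Il4, Il13, Tslp and Csf2 gave few of the reads in the TRP-1MV and MV (L.i.t.) sums, which rest on the inflammatory cytokines. The part of these cytokines in the ligands' levels was not tested.

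Against CTX, 11 of the 16 receptors and transcription factors through which such cytokines act were called higher in the TRP-1MV tumor. In the MV (L.i.t.) tumor 10 were, and none was called lower in either. Their median log2 ratio was 1.92 in the TRP-1MV tumor and 1.81 in the MV (L.i.t.) tumor. All genes compared had medians of -0.07 and -0.05, with 18.5% and 18.1% called higher. Csf2rb, the signalling chain of the GM-CSF receptor, stood at 7.60 in the TRP-1MV tumor, the highest of the list there, and at 6.88 in the MV (L.i.t.) tumor, where Irf4 was the highest at 7.43. Irf4, a factor of activated dendritic cells and lymphocytes, had 1455 reads in the TRP-1MV tumor, 1218 in the MV (L.i.t.) tumor, 3 in the remote tumor and 10 in the CTX tumor. Il4ra, the interleukin 4 receptor chain, stood at 4.19 in the TRP-1MV tumor and 3.73 in the MV (L.i.t.) tumor. Stat6 itself was not called, at -0.13 in the TRP-1MV tumor and -0.24 in the MV (L.i.t.) tumor.

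Genes of mature dendritic cells, a main known source of CCL22, were present in the same tumors. Of 22 listed, 19 passed the minimum. In the TRP-1MV tumor 19 were called higher and in the MV (L.i.t.) tumor 17, against 18.5% and 18.1% of all genes. The median log2 ratios to CTX were 4.29 and 3.88. Ccr7, the receptor that leads mature dendritic cells and naive T cells to lymph nodes, had 2463 reads in the TRP-1MV tumor, 1405 in the MV (L.i.t.) tumor, 10 in the remote tumor and 4 in the CTX tumor. Cd86, a costimulatory ligand, had a log2 ratio of 6.78 in the TRP-1MV tumor and 6.22 in the MV (L.i.t.) tumor. Lamp3, a defining marker of mature dendritic cells, was below the minimum, with 5 reads in the TRP-1MV tumor, 1 in the MV (L.i.t.) tumor and 2 each in the remote and CTX tumors. Of 11 dendritic cell lineage genes, 7 passed the minimum. In the TRP-1MV tumor 6 were called higher and in the MV (L.i.t.) tumor 5, against 18.5% and 18.1% of all genes. Flt3, one of those that passed, had 24 reads in the TRP-1MV tumor and 29 in the MV (L.i.t.) tumor. Below the minimum, Clec9a had 5 and 9 reads there and Cd209a 3 and 2. Many genes of these lists passed the minimum only through the 2 tumors where they are high.

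Genes of macrophages, the other known source, were also higher. Of 16 listed, 15 passed the minimum. In the TRP-1MV tumor 13 were called higher and in the MV (L.i.t.) tumor 12, with median log2 ratios of 3.07 and 2.69. The share of all genes called higher was 18.5% and 18.1%. The list summed to 1536 CPM in the TRP-1MV tumor, 1067 in the MV (L.i.t.) tumor, 117 in the remote tumor and 94.9 in the CTX tumor. Of 8 genes of alternatively activated macrophages, 5 were called higher in the TRP-1MV tumor and 4 in the MV (L.i.t.) tumor. Chil3, a chitinase-like protein, stood at 7.53 in the TRP-1MV tumor and 6.97 in the MV (L.i.t.) tumor, whereas Mrc1, the mannose receptor, was not called at 0.74 in the TRP-1MV tumor and 0.52 in the MV (L.i.t.) tumor, and was called higher, at 1.59 and 1.40, with scaling on housekeeping genes.

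Other leukocyte genes were higher in the same tumors. Of 10 neutrophil genes, 6 passed the minimum and all 6 were called higher, with median log2 ratios to CTX of 5.86 in the TRP-1MV tumor and 4.99 in the MV (L.i.t.) tumor, and the list summed to 552 CPM in the TRP-1MV tumor, 354 in the MV (L.i.t.) tumor, 2.31 in the remote tumor and 1.72 in the CTX tumor. Mmp8 and Lcn2 belong to that list, while its defining marker Ly6g had 3 reads in the TRP-1MV tumor, 1 in the MV (L.i.t.) tumor, none in the remote tumor and 1 in the CTX tumor. All 5 B cell genes were called higher, with medians of 5.49 in the TRP-1MV tumor and 5.26 in the MV (L.i.t.) tumor. Among all genes compared, 18.5% and 18.1% were called higher in these tumors. The part of these cells in the ligands' levels was not tested.

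Ccl22 was set against genes of these cells. Per 1000 reads of the macrophage genes Adgre1, Csf1r and Itgam it had 1424 reads in the TRP-1MV tumor and 1327 in the MV (L.i.t.) tumor, against 19.7 in the remote tumor and 53.0 in the CTX tumor. Per 1000 reads of the dendritic cell genes Itgax, Flt3 and Zbtb46 it had 12677 in the TRP-1MV tumor and 10259 in the MV (L.i.t.) tumor, against 28.6 in the remote tumor and 45.2 in the CTX tumor. Those dendritic cell genes had 175 reads in the remote tumor and 177 in the CTX tumor, of which Zbtb46 alone had 132 and 156. The low values on this scale in the remote and CTX tumors therefore rest mostly on Zbtb46. Per 1000 Ccr7 reads Ccl22 had 5281 in the TRP-1MV tumor (5058 to 5516) and 4732 in the MV (L.i.t.) tumor (4466 to 5016), against 500.0 in the remote tumor (134 to 1606) and 2000.0 in the CTX tumor (536 to 9076). On that scale, with 4 Ccr7 reads in CTX, the TRP-1MV and MV (L.i.t.) tumors were not told apart from CTX. Between the TRP-1MV and MV (L.i.t.) tumors, the difference in Ccl22 was smaller on these scales: the ratio of ratios was 1.07 against the macrophage genes (1.03 to 1.12), 1.12 against Ccr7 (1.04 to 1.20) and 1.24 against the dendritic cell genes (1.11 to 1.37). For Ccl17 against Ccr7 it was 1.01 (0.900 to 1.14).

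The receptor was set against T cell genes. Ccr4 had 242 reads per 1000 Cd3e, Cd3d and Cd3g reads in the TRP-1MV tumor (208 to 281) and 214 in the MV (L.i.t.) tumor (180 to 253), a ratio of ratios of 1.13 (0.902 to 1.43). The remote and CTX tumors had 17 such reads each, and 0 Ccr4 reads allow up to 242 per 1000 by the exact 95% limit, so a level per T cell transcript like that of the TRP-1MV tumor was not detectable as different there. Against the sum of 15 pan T cell genes, Ccr4 had 36.7 reads per 1000 in the TRP-1MV tumor (31.9 to 42.0) and 33.0 in the MV (L.i.t.) tumor (28.1 to 38.5). On that scale 0 reads allow up to 18.1 in the remote tumor and 18.2 in the CTX tumor, below both intervals. Most of that sum in the remote and CTX tumors was Lck, a T cell kinase, with 908 reads in the TRP-1MV tumor, 786 in the MV (L.i.t.) tumor, 139 in the remote tumor and 130 in the CTX tumor. Without Lck, a choice made after seeing the data, Ccr4 had 43.2 reads per 1000 in the TRP-1MV tumor and 39.1 in the MV (L.i.t.) tumor. Then 0 reads allow up to 56.6 in the remote tumor and 51.1 in the CTX tumor. A difference per T cell transcript was thus seen with Lck in the sum and was not detectable without it.

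**Figure D4:**
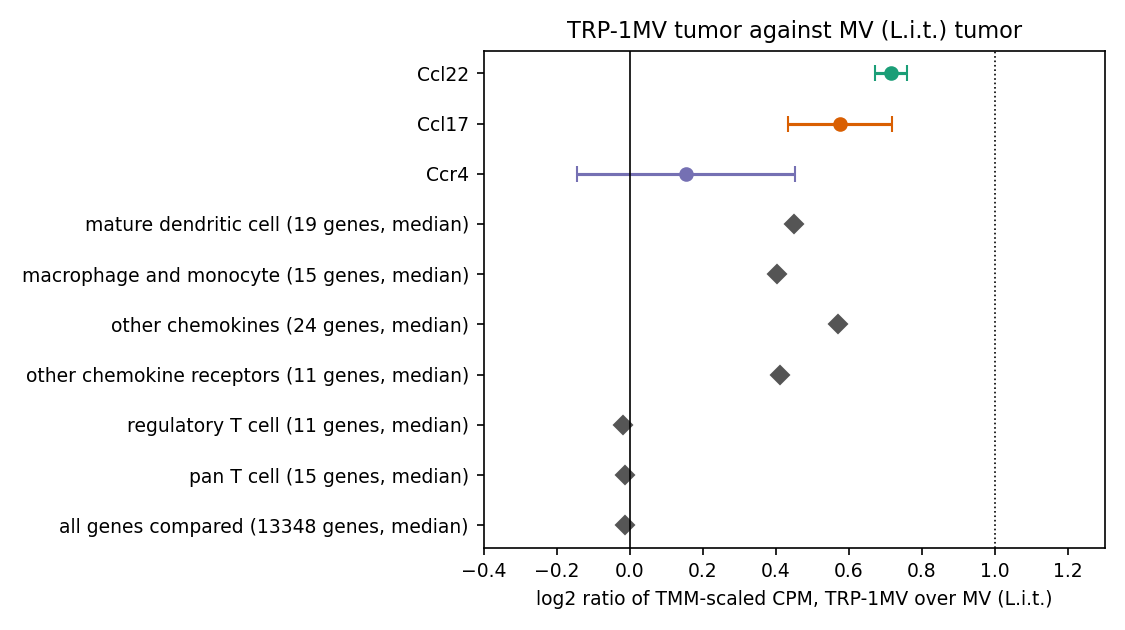
Log2 ratio of the TRP-1MV tumor over the MV (L.i.t.) tumor for the 3 genes, with 95% intervals for counting error, and as diamonds the median over the genes of 6 lists and over all genes; the dotted line marks the 2-fold ratio needed for a call. Ccl22 at 0.72 and Ccl17 at 0.58 lie above 0 and below that line, and the interval of Ccr4 at 0.15 includes 0.

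Genes of regulatory T cells, the cells best known for CCR4 in tumors, were higher too, but their defining markers had few reads. Of 12 listed, 11 passed the minimum and 9 were called higher than in CTX in each of the TRP-1MV and MV (L.i.t.) tumors. Of all genes compared, 18.5% and 18.1% were. The list had median log2 ratios of 3.84 and 3.75. Foxp3, the lineage factor, had 40 reads in the TRP-1MV tumor, 39 in the MV (L.i.t.) tumor and 9 each in the remote and CTX tumors, with a log2 ratio to CTX of 2.40 in the TRP-1MV tumor and 2.62 in the MV (L.i.t.) tumor. Il2ra, which activated conventional T cells and dendritic cells also carry, had 6734 reads in the TRP-1MV tumor, 5611 in the MV (L.i.t.) tumor, 7 in the remote tumor and 14 in the CTX tumor. Per 1000 Cd3 reads, Foxp3 had 44.1 reads in the TRP-1MV tumor and 50.2 in the MV (L.i.t.) tumor, against 529 in the remote tumor and the same in CTX, each from 9 reads over 17. Ccr8, a receptor of tumor regulatory T cells, had 12 reads in the TRP-1MV tumor, 12 in the MV (L.i.t.) tumor, 3 in the remote tumor and 2 in the CTX tumor, below the minimum.

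Markers of the other T cell classes known to carry CCR4 were mixed. Over all genes compared, 18.5% were called higher than in CTX in the TRP-1MV tumor and 18.1% in the MV (L.i.t.) tumor. The all-gene median log2 ratios were -0.07 and -0.05. Of 8 genes of type 2 helper cells and innate lymphoid cells, 3 passed the minimum and 2 were called higher in both tumors: Gata3, at 2.64 in the TRP-1MV tumor and 2.96 in the MV (L.i.t.) tumor, and Il1rl1, at 4.33 in the TRP-1MV tumor and 4.73 in the MV (L.i.t.) tumor. Of 7 skin-homing genes, 3 were called higher and 4 were not called in each. The list had median log2 ratios of 0.74 in the TRP-1MV tumor and 0.77 in the MV (L.i.t.) tumor, and its lowest values were -0.89 and -0.80. Among those called were Selplg at 6.34 in the TRP-1MV tumor and 5.90 in the MV (L.i.t.) tumor and Fut7 at 5.68 and 5.21. Selplg and Fut7 encode the selectin ligand backbone and an enzyme that fits it for selectin binding. Ccr10, the other skin-homing chemokine receptor, was not called, with 46 reads in the TRP-1MV tumor, 29 in the MV (L.i.t.) tumor, 44 in the remote tumor and 43 in the CTX tumor; scaled on housekeeping genes it was called higher in the TRP-1MV tumor, at a log2 ratio of 1.20. All 5 type 1 helper genes were called higher, with median log2 ratios of 6.48 in the TRP-1MV tumor and 6.49 in the MV (L.i.t.) tumor, and so were all 15 pan T cell genes, with medians of 6.06 in the TRP-1MV tumor and 5.98 in the MV (L.i.t.) tumor.

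Among the 18 receptors ranked per kilobase, Ccr4 had rank 6 in the TRP-1MV tumor at 4.42 CPM per kilobase and rank 6 in the MV (L.i.t.) tumor at 3.97. Ccr7 had rank 1 in both, with 77.3 CPM per kilobase in the TRP-1MV tumor and 52.6 in the MV (L.i.t.) tumor. Of the other 17 receptors, 11 passed the minimum and 10 were called higher than in CTX in each tumor, with medians of 4.51 and 4.24. Of the 35 other chemokines, 24 passed it. In the TRP-1MV tumor 17 were called higher and in the MV (L.i.t.) tumor 16, with medians of 4.51 and 4.13. The shares over all genes were 18.5% and 18.1%. Cxcl9, a ligand of CXCR3, was not called, at -0.27 in the TRP-1MV tumor and -0.15 in the MV (L.i.t.) tumor. In the remote tumor 4 chemokines, Ccl3, Ccl4, Ccl9 and Cxcl2, were called higher than in CTX, against 0.468% of all genes. Ccl9 was called only at full depth (log2 ratio 1.13, and 0.96 after thinning).

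Transcripts of genes whose proteins limit the ligands were also counted. Dpp4, a membrane protease that trims and inactivates CCL22, had 186 reads in the TRP-1MV tumor, 147 in the MV (L.i.t.) tumor, 5 in the remote tumor and 6 in the CTX tumor, with a log2 ratio to CTX of 5.21 in the TRP-1MV tumor and 5.12 in the MV (L.i.t.) tumor. T cells also carry Dpp4, as CD26. Ackr2, a scavenger receptor that takes up both ligands, had 4 reads in the TRP-1MV tumor, 3 in the MV (L.i.t.) tumor, none in the remote tumor and 3 in the CTX tumor.

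The genes whose profile over the 4 tumors was nearest to each member were found by the Euclidean distance between centred log2 profiles, with 0.25 CPM added, over 11137 genes with a mean count of at least 50. Nearest to Ccl17 were Slc7a2, an arginine transporter, at 0.34, then Cxcl3, Lcn2, Mmp12 and Ccr7 at 0.51. Slc7a2 had 2169 reads in the TRP-1MV tumor, 1212 in the MV (L.i.t.) tumor and 7 each in the remote and CTX tumors. Nearest to Ccl22 were Mmp8, a neutrophil collagenase, at 0.91, then Il2ra, Lcn2, Cxcl3 and, with rank 5, Ccl17 at 2.27. Nearest to Ccr4 were Sash3, a lymphocyte adaptor, and Psd4, both at 0.16, then Ly6c2, Bcl11b and Nefh at 0.21. Ccl17 and Ccr4 had no reads in the remote and CTX tumors, so the low end of their profiles is the 0.25 CPM added. Distances between members therefore depend on their level above it, and do not measure likeness of pattern alone. Seen from Ccl17, Ccl22 had rank 91 and Ccr4 rank 70. Ccr4 was 2.14 from Ccl17 and 4.40 from Ccl22, which had ranks 477 and 1159 by distance from Ccr4. These lists rest on 4 points, in which the TRP-1MV and MV (L.i.t.) tumors stand apart from the other two, and they changed with the pseudocount: with 1 CPM added, 4 of the 5 neighbours of Ccl22 were shared and none of those of Ccl17 or Ccr4. With scaling on housekeeping genes, 4 of those of Ccl22, 3 of those of Ccl17 and none of those of Ccr4 were shared, and under both settings Ccl17 was not among the 5 nearest to Ccl22.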

How the data were processed

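RNA-seq tables of 4 B16 tumor libraries were used, 1 per group. The values deposited by the authors are raw counts per gene symbol, without normalization, per the file headers and values. HISAT2, featureCounts and mm10 are named in the submitters' processing notes, without versions; the gene annotation, strand setting and treatment of multiply mapped reads are not given in the sources used. Groups came from the titles and treatment labels.

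CPM were computed with TMM effective library sizes, estimated on all 4 libraries together (edgeR 4.0.16, R 4.3.3). Genes with a mean count of at least 10 were compared, 13357 in all. Ratios have 95% exact conditional binomial (Clopper-Pearson) intervals (scipy 1.17.1, numpy 2.4.6, pandas 2.3.3, Python 3.11.15), which cover counting error only; reads without molecular identifiers are not independent molecules. A library at 0 was set to 3 counts and its ratio given as a bound, without the counting error of the nonzero library; no ratio was given where both had 3 reads or fewer. A call needed a ratio of at least 2 and an interval excluding 1. With 1 library per group there was no test and no p-value. The calling rule was tested on simulated data.

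Gene positions and exon lengths came from GENCODE M21 (mm10) for 24368 symbols, and promoter windows from RefSeq, matched by symbol for 3 of 3 genes. Figures were drawn with matplotlib 3.10.9. Named genes were the 3 members, the 5 nearest to each in profile, their neighbours on the chromosome, the highest or lowest of a list, and genes of the CCR4 pathway; some others were named after their values were seen. The members and the 25 gene lists were chosen with earlier results of these data known. Alternatives were DESeq2 1.42.0 size factors and 11 others, given in the closing section. A few results on other listed genes are not reported here.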

Additional observations from a re-analysis of the deposited data

How the results depend on the processing

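No paired analysis was possible because the tables hold 1 column per group, and alternatives that leave out a replicate were not run for the same reason. Under 12 alternatives of scaling, filter, call and depth, every member ratio kept its direction and its call. Ccl22 ranged in log2 ratio to CTX between 10.57 and 11.77 in the TRP-1MV tumor and between 9.83 and 11.08 in the MV (L.i.t.) tumor, and in the TRP-1MV over the MV (L.i.t.) tumor between 0.69 and 0.73. Thinning all libraries to the smallest total lowered the bounds, since 3 counts are then a larger share of the remote and CTX libraries: Ccl17 stood at 8.10 in the TRP-1MV and 7.49 in the MV (L.i.t.) tumor against CTX and 7.47 in the MV (L.i.t.) against the remote tumor, and Ccr4 at 5.69, 5.56 and 5.55. The pan T cell denominator gave 36.7 Ccr4 reads per 1000 in the TRP-1MV and 33.0 in the MV (L.i.t.) tumor, and without Lck, an alternative chosen after seeing the data, 43.2 and 39.1. Calls in the lists between the remote and CTX tumors numbered 15, but 6 at a ratio of at least 4 and 5 where the interval had to exclude 2; between the TRP-1MV and MV (L.i.t.) tumors they numbered 2, but 4 with no minimum and 0 under a minimum of 50, under a ratio of 4 and under an interval excluding 2. Scaling on housekeeping genes shifted every log2 ratio to CTX by 0.85 in the TRP-1MV tumor and 0.88 in the MV (L.i.t.) tumor. Total counts shifted them by 0.24 in each. Under housekeeping scaling, all-gene calls split 5359 higher and 287 lower in the TRP-1MV tumor, against 2476 and 1559. In the MV (L.i.t.) tumor they split 5598 and 255, against 2411 and 1488. Under TMM scaling the housekeeping genes had median log2 ratios to CTX of -0.85 in the TRP-1MV tumor and -0.83 in the MV (L.i.t.) tumor. Which of the 2 scalings is nearer the true levels was not tested. The remote and CTX libraries were the deepest, with 21790759 and 20811605 reads. The TRP-1MV and MV (L.i.t.) libraries had 14802809 and 12375526. With 0 reads of Ccl17 and Ccr4 in the remote and CTX tumors, no ratio between those tumors could be given.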
